A study of Rattus norvegicus with 4 samples.

Results

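Integrins and laminins are the receptor and ligand families through which heart muscle cells hold on to the basement membrane. The genes described here are all integrin alpha and beta chain genes and all laminin alpha, beta and gamma chain genes that the array's probe annotation names, together with 6 genes whose proteins act at the integrin tail (Itgb1bp2, Ilk, Ptk2, Tln1, Vcl and Pxn). The rule that picks them uses gene names. They are 38 of the 14217 genes measured, and 57 of the 31042 probe sets. Itga2, Itga10, Itga4, Itgb8 and Lamb4 have no probe set paired with them in the annotation used and were not analysed here.

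The cells were ventricular cardiomyocytes isolated enzymatically from Sprague-Dawley rats aged 1 to 2 days and plated on dishes coated with laminin, so cells of both groups sat on a laminin integrin ligand supplied from outside. They were infected with an adenovirus that carries atrogin-1 together with GFP (Ad-atrogin-1, 2 arrays) or with a control virus for GFP only (Ad-GFP, 2 arrays), for 24 hours in serum-free medium. Atrogin-1, encoded by Fbxo32, is an F-box protein that gives substrates to an SCF ubiquitin ligase. The study asked which genes change when it is overexpressed, and since both groups carry virus and GFP, they differ in the virus-driven atrogin-1.

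An integrin is a pair of 1 alpha and 1 beta chain that spans the membrane. The alpha chain largely sets which matrix protein is bound, and the beta tail recruits talin, integrin-linked kinase and other adaptors that connect it to actin. In striated muscle these contacts lie at the costameres, over the Z-discs, and pass contractile force to the matrix. A laminin is a cross-shaped trimer of 1 alpha, 1 beta and 1 gamma chain and is the main cell-binding protein of basement membranes.

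Signals are on the log2 scale, 1 per probe set, and differences are log2 fold changes of Ad-atrogin-1 over Ad-GFP with their standard error (SE) from limma. A gene or probe set is called higher or lower when its Benjamini-Hochberg adjusted p is under 0.05 and the change is at least 2-fold. Each gene is represented by its probe set with the highest mean signal, and p is then adjusted over the 14217 genes. The labels call the arrays biological replicates without saying whether they came from separate cultures. Fbxo32 had log2 signals of 13.55 and 13.47 in Ad-atrogin-1 and 5.24 and 5.04 in Ad-GFP cells, in the direction of the labels; virus and cell transcripts are not separated. Of the cardiomyocyte markers, 9 of 10 were measured, and all 9 lay above the upper quartile of every array. Their median log2 fold change was 0.34, and none was called. In 4 of them both Ad-atrogin-1 arrays lay above both Ad-GFP arrays (44.4%, against 20.7% of all genes). In 1 both lay below (11.1%, against 22.3%), counts that were not tested. Fibroblast transcripts were also present, with 5 of 10 markers above that quartile on every array, against 0 of 9 macrophage and leukocyte markers. In such bulk RNA, fewer cells of a type and less RNA per cell cannot be told apart.

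Over genes, 1 member was called lower and 1 higher. Itga3, the alpha chain of a laminin receptor, was 2.34-fold lower in Ad-atrogin-1 cardiomyocytes, and Itga9, the alpha chain of a receptor for tenascin-C, osteopontin and VCAM-1, was 3.13-fold higher. Over all probe sets Itga9 was not called (limma adjusted p = 0.0561), and its dimmer probe set gave a log2 fold change of 0.18. No laminin gene and no adaptor gene was called. Over all genes, 0.0563% were called lower and 0.457% higher, against 1 of 38 members (2.63%) in each direction. Each of these member shares rests on 1 gene and was not tested. Of the other members, Itgb3, Lamb3 and Itga11 differed by over 1.5-fold without being called. At an unadjusted p under 0.05, 3 members were lower and 2 higher (7.89% and 5.26%), and 6.52% and 6.83% of all genes were, so these shares are near those of all genes.

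**Figure D1:**
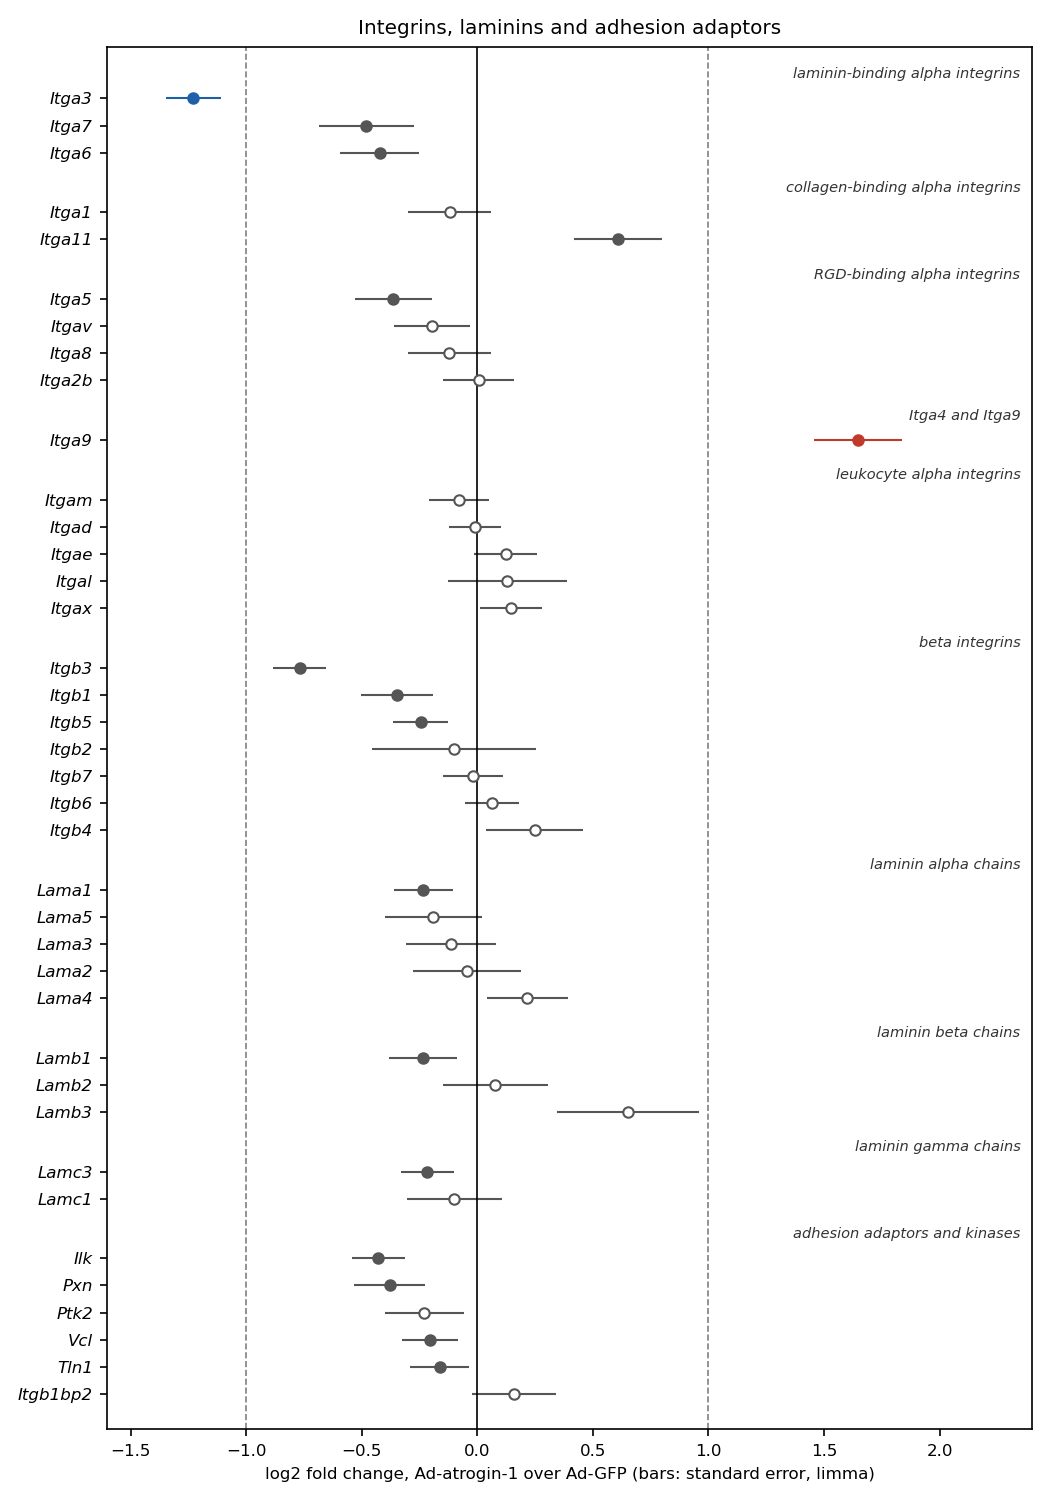
Log2 fold change on the horizontal axis (Ad-atrogin-1 relative to Ad-GFP) of the 38 members by role, with bars for the SE, blue for called lower, red for called higher and filled points where the 2 groups do not overlap. Itga3 lies beyond the left dashed line and Itga9 beyond the right one, which mark a 2-fold change.

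Itga3 had log2 signals of 8.03 and 7.95 on the Ad-atrogin-1 arrays, against 9.16 and 9.27 on the Ad-GFP arrays. Both Ad-atrogin-1 arrays lay more than 1 log2 unit below both Ad-GFP arrays, a gap far wider than that between arrays of the same group. The log2 fold change was -1.23 (SE 0.12, adjusted p = 0.0281, limma over genes). Over all probe sets the adjusted p was 0.0351, and Itga3 was the 1 member probe set called lower, against 0.0258% of all probe sets. Itga3 has a single probe set, whose signal was above the upper quartile of each array. With any 1 array left out, the log2 fold change of Itga3 stayed between -1.28 and -1.18. Such fits leave 1 array in a group, so no calls are given for them.

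The Itga3 protein pairs with the beta chain encoded by Itgb1 and is abundant in epithelia, so epithelial and mesothelial markers are given beside it. Of 12 such markers 11 were measured, and Krt5, Cdh1 and Epcam were under the lower quartile of every array. The summed signal of the 11 was 477 and 536 in Ad-atrogin-1 and 404 and 361 in Ad-GFP cells, with Krt19 at 7.89 and 8.09 against 3.20 and 5.48 on the log2 scale. Without Krt19, a sum taken after its values had been seen, the other 10 came to 240.2 and 264.5 in Ad-atrogin-1 and 394.8 and 316.1 in Ad-GFP cells, lower on both Ad-atrogin-1 arrays. Of the 11, 8 had negative log2 fold changes (72.7%, against 50.7% of all genes), a count that was not tested. Their median was close to zero, at -0.06. Krt18, a keratin gene of simple epithelia, had 6.06 and 6.33 in Ad-atrogin-1 and 7.47 and 6.58 in Ad-GFP cells (-0.83 ± 0.30 SE, limma adjusted p = 0.332). Cgn, the gene of the tight junction protein cingulin, was the 1 of them that was called, at log2 signals of 4.47 and 4.55 in Ad-atrogin-1 and 5.85 and 5.76 in Ad-GFP cells. The part of such cells in the Itga3 result was not tested.

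Itga9 moved the other way. Its brighter probe set had log2 signals of 8.35 and 7.91 on the Ad-atrogin-1 arrays and 6.34 and 6.62 on the Ad-GFP arrays, so the groups lay well apart. The log2 fold change was 1.65 (SE 0.19, adjusted p = 0.0449, limma over genes). Adjusted over all probe sets the p was 0.0561, so no member probe set was called higher, against 0.248% of all probe sets. A second, dimmer Itga9 probe set read 5.17 and 4.88 in Ad-atrogin-1 and 4.77 and 4.91 in Ad-GFP cells, with overlapping groups and a log2 fold change of 0.18 ± 0.15 (SE). With the 2 probe sets averaged, Itga9 had a log2 fold change of 0.92 and was not called (adjusted p = 0.0916, limma). With any 1 array left out, the log2 fold change of its brighter probe set stayed between 1.43 and 1.87. The Itga9 protein pairs with the same Itgb1 chain as Itga3 and is found, among other cells, in smooth muscle. The 8 smooth muscle and pericyte markers summed to 9933 and 9355 in Ad-atrogin-1 and 9300 and 10030 in Ad-GFP cells, which overlap. The sum includes Des, which cardiomyocytes also express, and the 8 did not all point one way. Rgs5, a pericyte gene, had 7.22 and 7.64 in Ad-atrogin-1 and 6.34 and 6.57 in Ad-GFP cells (0.98 ± 0.18 SE, limma adjusted p = 0.102). Myh11, the smooth muscle myosin gene, had 0.32 (SE 0.11), also higher without overlap, and the pericyte gene Cspg4 had -0.50 (SE 0.15), lower without overlap. None of the 8 was called, and the part of such cells in the Itga9 result was not tested.

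The promoters of these 2 genes are shown because their transcripts moved in opposite directions. They are RefSeq sequences of the GRCr8 build, from 250 bases before to 50 bases after the start site, and capitals mark GC boxes (GGGCGG) and CCAAT boxes (CCAAT) found on either strand. AP-1 (TGANTCA), TCF/LEF (CTTTGAT) and FOXO (GTAAACA) letters were searched too.
Itga3, chr10:80518852-80519151, minus strand: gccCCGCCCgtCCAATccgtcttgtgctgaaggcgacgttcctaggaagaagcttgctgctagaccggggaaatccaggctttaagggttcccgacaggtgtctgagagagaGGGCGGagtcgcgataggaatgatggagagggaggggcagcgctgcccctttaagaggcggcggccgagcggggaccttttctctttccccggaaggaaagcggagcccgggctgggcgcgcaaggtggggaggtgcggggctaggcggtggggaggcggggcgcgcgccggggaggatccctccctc
Itga9, chr8:127185039-127185338, plus strand: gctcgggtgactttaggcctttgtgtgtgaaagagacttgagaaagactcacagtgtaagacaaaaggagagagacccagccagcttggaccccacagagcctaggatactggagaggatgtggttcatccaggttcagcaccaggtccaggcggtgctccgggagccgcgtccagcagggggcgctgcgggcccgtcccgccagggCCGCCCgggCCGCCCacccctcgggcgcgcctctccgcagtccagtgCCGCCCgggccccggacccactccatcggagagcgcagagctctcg

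Both windows were rich in G and C (67.0% in Itga3 and 66.7% in Itga9). Itga3 held 2 GC boxes and 1 CCAAT box, and Itga9 held 3 GC boxes, with no overlap between them; none of the other 3 motifs was in either window. Of the 38 members 29 had a promoter in the table. GC boxes were in 51.7% of these 29 windows and in 34.9% of the 27457 promoters of all genes, and CCAAT boxes in 31.0% and 37.7%. AP-1 letters were in 2 of the 29 (7.33% of all promoters), and TCF/LEF and FOXO letters in 0 of the 29 (3.62% and 3.76% of all promoters).

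The other laminin-binding alpha chains were also lower on both Ad-atrogin-1 arrays, by less, and neither was called. Itga7, whose product with the Itgb1 chain is the main laminin receptor of striated muscle, had log2 signals of 9.21 and 8.85 in Ad-atrogin-1, against 9.28 and 9.74 in Ad-GFP cells. Its log2 fold change was -0.48 (SE 0.20, adjusted p = 0.405, limma). The gap between the nearest arrays of the 2 groups was smaller than the spread within either group. A second Itga7 probe set gave -0.47, and the dimmest, under the lower quartile of every array, gave 0.04. Itga6, whose product pairs with the Itgb1 or Itgb4 chain, had 9.08 and 9.43 in Ad-atrogin-1 and 9.81 and 9.55 in Ad-GFP cells, a log2 fold change of -0.42 ± 0.17 (SE, limma adjusted p = 0.381). All 4 Itga6 probe sets had negative values, between -0.42 and -0.07, and 2 of them had groups that did not overlap.

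**Figure D2:**
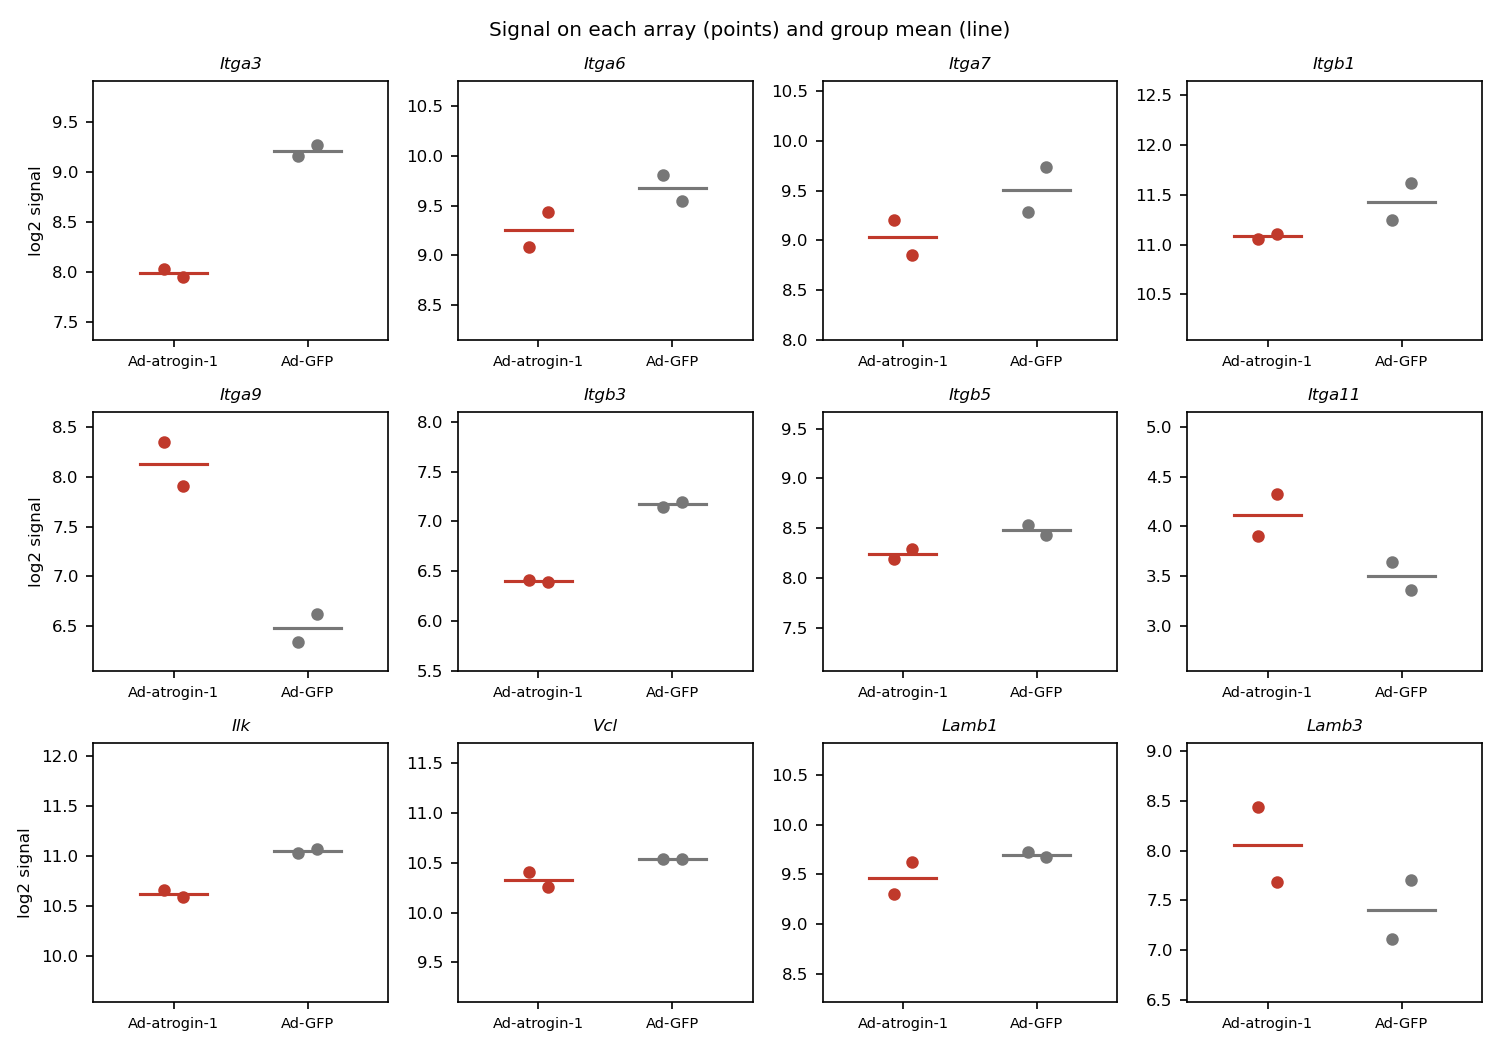
Log2 signal (vertical axis, the same span of 2.6 units in each panel) on each Ad-atrogin-1 array (red, left) and each Ad-GFP array (grey, right) for 12 members, with lines for group means. Itga3 at 8.03 and 7.95 against 9.16 and 9.27 and Itga9 at 8.35 and 7.91 against 6.34 and 6.62 are the 2 called members. The 12 were selected for display, and only the Lamb3 groups overlap among them. Over all members the groups overlap for 22 of 38, and over all genes for 8097 of 14217.

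Neither collagen receptor chain was called. Itga1, a collagen and laminin receptor chain, had overlapping groups, at 7.77 and 8.19 in Ad-atrogin-1 and 7.99 and 8.21 in Ad-GFP cells (log2 fold change -0.12 ± 0.18). Itga11, a collagen receptor chain of mesenchymal cells, had signals under the median of every array. They were 3.90 and 4.33 in Ad-atrogin-1 and 3.65 and 3.36 in Ad-GFP cells, a log2 fold change of 0.61 ± 0.19 (SE, limma adjusted p = 0.267). A change this close to the floor of the arrays is not an exact size.

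Among the alpha chains of receptors for the RGD peptide of fibronectin and vitronectin, none was called. The fibronectin receptor chain Itga5 had 8.48 and 8.39 in Ad-atrogin-1 and 9.00 and 8.60 in Ad-GFP cells, lower on both arrays (-0.36 ± 0.17 SE on the log2 scale, limma adjusted p = 0.439). Itgav, the alpha chain shared by the vitronectin receptors, had a log2 fold change of -0.20 ± 0.16 (SE) at its brightest probe set, with overlapping groups at 7.23 and 7.44 in Ad-atrogin-1 and 7.36 and 7.70 in Ad-GFP cells. Of its other 2 probe sets, 1 gave -0.19 and 1 gave -0.56 without overlap, at 6.93 and 7.19 against 7.43 and 7.81. Itga8 and the platelet chain Itga2b had overlapping groups and values of -0.12 and 0.01.

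Of the beta chains, Itgb3 had the clearest separation. It encodes the partner of the Itgav chain in the vitronectin receptor and of the Itga2b chain on platelets. Its log2 signals were 6.42 and 6.39 in Ad-atrogin-1 and 7.14 and 7.20 in Ad-GFP cells, 1.70-fold lower (-0.77 ± 0.11 SE on the log2 scale, limma adjusted p = 0.0644). The arrays of each group differed by less than 0.1, but neither the adjusted p nor the fold change reached the threshold. Of 4 platelet markers 3 were measured, and their summed signals were 475 and 125 in Ad-atrogin-1 and 261 and 287 in Ad-GFP cells. Most of that sum was Pf4, and without it, a sum taken after seeing the values, the other 2 came to 51.0 and 54.2 against 58.0 and 54.1. All 3 had negative log2 fold changes between -0.33 and -0.08 (100%, against 50.7% of all genes). Groups overlapped for Ppbp and for Pf4, which had 8.73 and 6.14 in Ad-atrogin-1 and 7.66 and 7.86 in Ad-GFP cells (SE 0.78). The part of platelets in the Itgb3 values was not tested. Itgb5, another partner of the Itgav chain, had 8.19 and 8.29 in Ad-atrogin-1 and 8.54 and 8.43 in Ad-GFP cells (log2 fold change -0.25 ± 0.12), and its other probe sets gave -0.55 and -0.13.

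Itgb1, the common partner of most alpha chains above, had log2 signals of 11.06 and 11.11 in Ad-atrogin-1 and 11.25 and 11.62 in Ad-GFP cells. Both Ad-atrogin-1 arrays were lower, by a log2 fold change of -0.35 ± 0.16 (SE, limma adjusted p = 0.427). The second Itgb1 probe set gave -0.31, also without overlap. Itgb4, the hemidesmosome partner of the Itga6 chain, had 0.25 (SE 0.21) from signals under the array median. Itgb6, of epithelial cells, was under the lower quartile of every array, the 1 member gene for which this held.

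Leukocyte integrins did not separate the groups. Itgal, Itgam, Itgax, Itgad and Itgae, which encode leukocyte alpha chains, had log2 fold changes between -0.08 and 0.15, with overlapping groups for all 5. Their signals were low, with none of the 5 above the median of every array and Itgam, Itgax and Itgad under it on every array. Itgae, whose product pairs with the Itgb7 chain, had 5.71 and 5.55 in Ad-atrogin-1 and 5.60 and 5.40 in Ad-GFP cells. Itgam, Itgax and Itgad are neighbours on chromosome 1. Itgb2, the beta chain of the first 4, had 6.11 and 5.01 in Ad-atrogin-1 and 5.52 and 5.80 in Ad-GFP cells, so the Ad-atrogin-1 arrays lay on either side of the Ad-GFP arrays. Itgal did the same, at 5.63 and 4.85 against 5.07 and 5.15. The 9 macrophage and leukocyte markers summed to 567 and 306 in Ad-atrogin-1 and 391 and 443 in Ad-GFP cells, also with replicate 1 of Ad-atrogin-1 highest and replicate 2 lowest, and Cd163 was under the lower quartile of every array. The part of such cells in these signals was not tested. Itgb7 had -0.02 (SE 0.13).

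No laminin chain gene was called in either direction, and the median over the 10 measured was -0.11. Lamc1, the gamma chain of most laminins, had 10.43 and 10.26 in Ad-atrogin-1 and 10.17 and 10.72 in Ad-GFP cells, with overlapping groups and a log2 fold change of -0.10 ± 0.21 (SE). Its second probe set gave -0.14. Lamb1, the beta chain found with it in many tissues, had 9.31 and 9.62 in Ad-atrogin-1 and 9.72 and 9.67 in Ad-GFP cells, lower on both arrays (-0.23 ± 0.15 SE on the log2 scale, limma adjusted p = 0.569). Lamb2, the beta chain of laminins at neuromuscular synapses, overlapped at 8.48 and 7.85 in Ad-atrogin-1 and 7.98 and 8.18 in Ad-GFP cells.

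Lamb3 had the largest difference of the laminins, and it did not hold up against the spread between arrays. This beta chain belongs to an epithelial laminin whose alpha chain is Lama3. Its log2 signals were 8.44 and 7.68 in Ad-atrogin-1 and 7.11 and 7.70 in Ad-GFP cells, so Ad-atrogin-1 replicate 2 lay just under Ad-GFP replicate 2. The log2 fold change was 0.65 (SE 0.31, adjusted p = 0.449, limma). It was 0.27 without Ad-atrogin-1 replicate 1 and 1.03 without its replicate 2. Lama3 itself was under the array medians, with overlapping groups (-0.11, SE 0.20).

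Of the other laminin alpha chains, Lama2, the chain of the main skeletal and cardiac muscle laminin, had 8.23 and 7.97 in Ad-atrogin-1 and 7.82 and 8.46 in Ad-GFP cells (log2 fold change -0.04 ± 0.23). Lama4, a chain of vascular and muscle basement membranes, had 8.47 and 8.52 against 8.06 and 8.50 (0.22, SE 0.17), and Lama5 had 8.68 and 8.46 against 8.48 and 9.04 (-0.19, SE 0.21). The groups overlapped for all 3. A second Lama5 probe set gave 0.12 and the dimmest -0.13, both under the lower quartile of every array. Lama1 and the gamma chain gene Lamc3 had lower signals in Ad-atrogin-1 cells without overlap, by log2 fold changes of -0.23 and -0.22, with Lamc3 at 5.45 and 5.52 against 5.72 and 5.68.

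None of the 6 adaptor genes at the integrin tail was called, and all differed by less than 1.5-fold. Of the 6, 5 had negative values (83.3%, against 50.7% of all genes) and 4 were lower without overlap (66.7%, against 22.3% of all genes), counts that were not tested. Ilk, which encodes integrin-linked kinase, a scaffold between the beta tail and actin, had log2 signals of 10.65 and 10.59 in Ad-atrogin-1 and 11.03 and 11.07 in Ad-GFP cells. The groups did not overlap, with a log2 fold change of -0.43 ± 0.11 (SE, limma adjusted p = 0.220). Vcl, the gene of the actin linker vinculin, had lower signals in Ad-atrogin-1 cells, without overlap, at all 3 of its probe sets. At the brightest it had 10.41 and 10.26 in Ad-atrogin-1 and 10.54 and 10.53 in Ad-GFP cells (-0.20, SE 0.12), and the dimmer probe sets gave -0.35 and -0.47 (SE 0.13 each).

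Pxn, which encodes the focal adhesion scaffold paxillin, had 7.50 and 7.86 in Ad-atrogin-1 and 8.08 and 8.04 in Ad-GFP cells (-0.38 ± 0.16 SE on the log2 scale, limma adjusted p = 0.383). Tln1, the gene of talin, which activates integrins through the beta tail, had -0.16 (SE 0.13), also without overlap. Ptk2, the gene of focal adhesion kinase, had -0.23 (SE 0.17) with overlapping groups. Itgb1bp2 encodes melusin, a muscle protein that binds the Itgb1 tail. It was the 1 adaptor with a positive value (0.16, SE 0.18), and its groups overlapped at 8.73 and 8.25 in Ad-atrogin-1 against 8.36 and 8.31 in Ad-GFP cells.

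**Figure D3:**
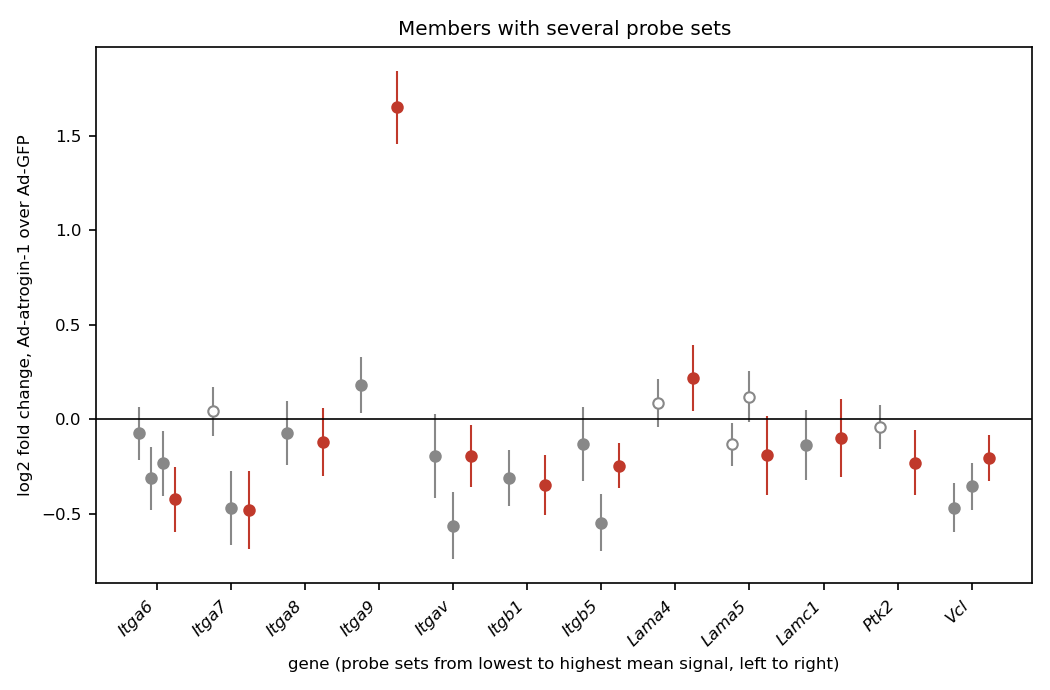
Vertical axis, log2 fold change of Ad-atrogin-1 against Ad-GFP, with SE, for each probe set of the 12 members that have several, red for the brightest and open where the signal is under the lower quartile of every array. The 2 Itga9 probe sets lie at 0.18 and 1.65, while the 3 of Vcl lie between -0.47 and -0.20.

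Probe sets of the same gene mostly pointed the same way. Of the 12 members with several probe sets, 10 had all of them on one side of zero, and for Itga7 and Lama5, the other 2, the positive value came from a probe set under the lower quartile. Itga9 had the widest difference in size between its probe sets.

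Over the 38 members the median log2 fold change was -0.12, against 0.00 (-0.0028) over all genes. Of the 38, 26 were negative (68.4%, against 50.7% of all genes). The groups did not overlap for 14 members that were lower (36.8%) and 2 that were higher (5.26%), Itga9 and Itga11. Among all genes, these shares were 22.3% and 20.7%. Of the 28 members with a mean signal above the median of all probe sets, 13 were lower without overlap (46.4%), against 22.9% of all genes above it. These counts describe the list and were not tested.

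**Figure D4:**
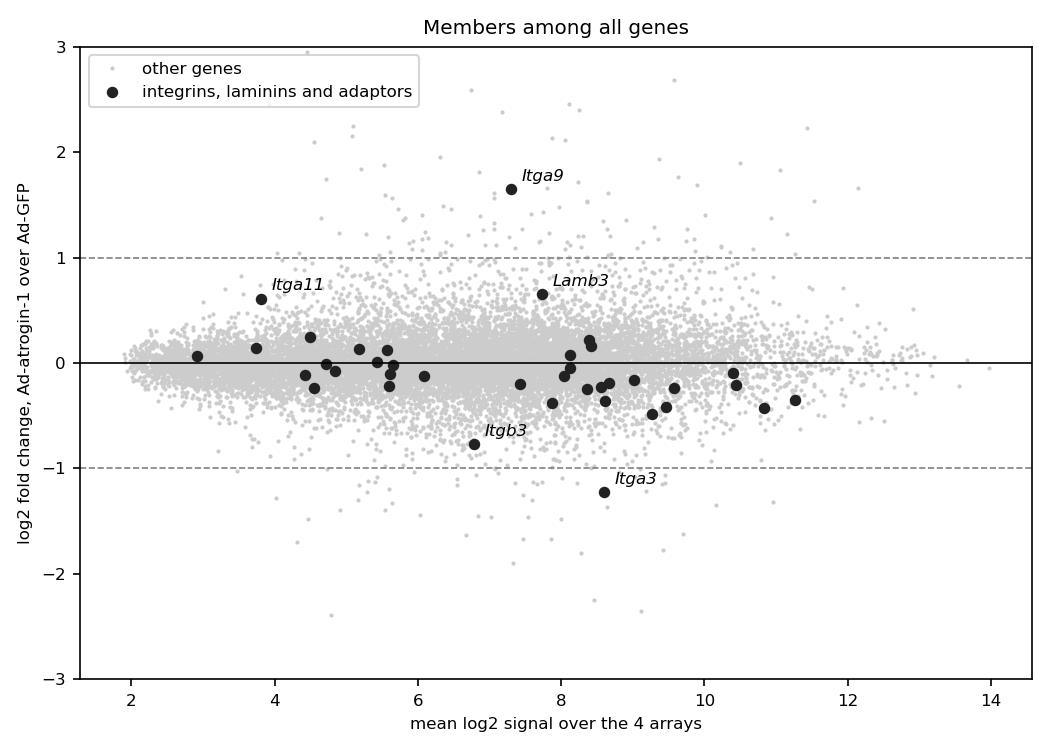
Vertical axis, log2 fold change of Ad-atrogin-1 against Ad-GFP, and horizontal axis, average log2 signal on the 4 arrays, for all other genes (grey) and the 38 members (black), with dashed lines at 2-fold. Most black points to the right lie a little under zero, at a median of -0.12 over all members; 6 genes beyond the limits of the vertical axis are not drawn.

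No gene on 4 further lists of cell-matrix adhesion genes was called. Of 23 focal adhesion genes, 4 were lower and 1 higher at an unadjusted p under 0.05, with a median log2 fold change of -0.15. These shares were 17.4% and 4.35%, against 6.52% and 6.83% of all genes, and were not tested. Zyx, the gene of the adhesion protein zyxin, had 10.52 and 10.54 in Ad-atrogin-1 and 11.22 and 11.12 in Ad-GFP cells (-0.64, SE 0.12, adjusted p = 0.0991, limma). Arhgef7, which encodes a Rac exchange factor at adhesions, went the other way, with 8.66 and 8.61 against 8.01 and 7.87 (0.69, SE 0.12, adjusted p = 0.0933).

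Of 12 other laminin receptors and partner genes, 2 were lower at an unadjusted p under 0.05 (16.7%, against 6.52% of all genes) and 0 higher, with a median of -0.02. Bcam, which encodes a receptor for laminins with the Lama5 chain, had 8.07 and 7.54 in Ad-atrogin-1 and 8.75 and 8.62 in Ad-GFP cells (-0.88 ± 0.20 SE on the log2 scale, limma adjusted p = 0.166). The other was Cd151, whose tetraspanin product associates with the Itga3 chain, at 10.51 and 10.86 against 11.37 and 11.16 (-0.58, SE 0.17, adjusted p = 0.242, limma). Dag1, the gene of dystroglycan, had -0.17 (SE 0.14).

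Among 11 other integrin ligands, 2 were lower and 1 higher at an unadjusted p under 0.05 (18.2% and 9.09%, against 6.52% and 6.83% of all genes), with a median of -0.18. Tnc encodes tenascin-C, a ligand of the Itga9 receptor, and had 7.78 and 7.85 in Ad-atrogin-1 and 8.48 and 8.71 in Ad-GFP cells (-0.78 ± 0.13 SE on the log2 scale, limma adjusted p = 0.0909). The thrombospondin gene Thbs2 had 6.44 and 5.93 in Ad-atrogin-1 and 5.15 and 5.74 in Ad-GFP cells (0.74, SE 0.26). Spp1 and Vcam1, the genes of osteopontin and VCAM-1, had -0.18 (SE 0.17) and 0.18 (0.36). Of 12 other basement membrane genes, 2 were lower (16.7%) and 0 higher at that p (median -0.10); the collagen IV chain gene Col4a5 had 8.70 and 8.48 against 9.12 and 9.24 (-0.59, SE 0.14, adjusted p = 0.169, limma), and Hspg2, the gene of perlecan, had -0.01 (SE 0.12).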

How the data were processed

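Each of 2 Ad-atrogin-1 and 2 Ad-GFP RNA samples was measured on 1 Affymetrix rat expression array. The authors made the deposited log2 values with the RMA method of GeneSpring GX, which corrects background, equalizes the arrays and summarizes the probes of a set. The values were used as deposited. Array medians lay between 5.51 and 5.52 and lower quartiles between 3.88 and 3.94. Control probe sets (57) did not enter, and no filter on low signal was applied. RMA gives no background level or read depth; the number of arrays limits the precision.

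The members' symbols were matched by gene ID to RefSeq, and all 38 agreed. The comparison used limma (version 3.58.1, R 4.3.3) with its moderated, two-sided test and no replicate block, on 2 residual and 3.65 prior degrees of freedom. The methods name a comparison of 2 means without further detail, so an equal-variance test (called the methods' t-test) is an alternative. Other alternatives were array centring, a further quantile step, the brightest 60% of probe sets alone, a trend or robust prior, other thresholds, a replicate block, averaged probe sets and each array left out. The fit was checked on drawn values with known answers. Signals were compared across probe sets only to choose a gene's brightest, to rank members within a role, to place them against array quartiles and to sum markers. Members and lists were chosen with earlier results of these data known. Members were described with array values where a probe set was called, had an unadjusted p under 0.05, moved by at least 1.5-fold or disagreed in direction with another, or where they were among the 2 brightest of their role; Itgb1bp2, Pxn, Itgb2 and Lama2 were added after their values had been seen. Of the other lists, genes with an unadjusted p under 0.05 and at least 1.5-fold were named; Cd151, Dag1, Spp1, Vcam1, Hspg2 and single marker genes were likewise added later. Figures were drawn with matplotlib 3.10.9. The arrays alone were analysed here.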

Additional observations from a re-analysis of the deposited data

How the results depend on the processing

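The call of Itga3 held with arrays centred, with a further quantile normalization and over the upper 60% of probe sets. It also held with a trend or robust prior and with unadjusted p from the methods' t-test. The looser limma thresholds (no fold threshold, 1.5-fold or unadjusted p) could not undo a call, so they say nothing about its stability. Averaging probe sets could not change the log2 fold change of Itga3, which has 1 probe set. The call of Itga9 over genes held under the same settings that could undo it, except averaged probe sets, where 1 member gene, Itga3, was called. Over all probe sets, 1 member, Itga9, was called higher with centring, quantile normalization, the upper 60% of probe sets, or unadjusted p from limma or the methods' t-test, against 0 as reported. With adjusted p, the methods' t-test called 0 members and 0 of all genes. At an unadjusted p under 0.05 it had 5 of 38 members, against 1339 of 14217 genes. The replicate block, with 1 residual degree of freedom, called 0 member genes and 0 member probe sets (adjusted p = 0.144 for Itga3 and 0.172 for Itga9, limma). Over all 14217 genes it called 0 lower and 1 higher. At an unadjusted p under 0.05 it had 5 of 38 members, against 1842 of 14217 genes. The labels number the arrays 1 and 2 in both groups, and the correlation of same-numbered arrays' deviations was 0.0432, so the numbers were not taken to pair samples. Leaving out any 1 array left 1 array in a group, so log2 fold changes alone are given here for those fits. Direction in those fits was checked only for the 22 members that met the rule above for array values, not for the other 16. Of the 22, 6 not called changed direction, with log2 fold changes of -0.33 to 0.0898 for Itga1, -0.26 to 0.52 for Itgal, -0.24 to 0.39 for Lamb2, -0.0079 to 0.44 for Lama4, -0.47 to 0.0864 for Lama5 and -0.37 to 0.18 for Lamc1. The median over the members stayed between -0.19 and -0.04 under all settings run. Over all genes, calls were 8 lower and 65 higher as reported, 18 and 80 with centring, and 20 and 74 with quantile normalization. Signals under the lower quartile give no exact fold change.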
